A study of Drosophila melanogaster with 2 samples.

Results

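The 73 genes described here encode the proteins of the mitochondrial ribosome of Drosophila melanogaster. They were chosen by name, as the protein-coding genes called mRpL or mRpS in the Ensembl annotation of dm6, and make up 73 of 13945 protein-coding genes on the chromosome arms. There were 47 genes of the large subunit (mRpL) and 26 of the small subunit (mRpS). Peaks came from ChIP-seq of schlank, a ceramide synthase that also carries a homeodomain, in 2 biological replicates of whole embryos aged 0 to 24 h, male and female mixed, from a transgenic line that stably makes schlank with GFP at its C terminus. Both replicates belonged to the same genotype and stage, so the design holds 1 group and no condition was compared with another. The sources used here do not say which promoter drives the fusion protein, and each library pools many embryos of all ages in that window. The antibody entry of each library is schlank, whereas its free text calls the library an input control. The antibody entry was followed here.

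The mitochondrial ribosome translates the few proteins encoded by mitochondrial DNA, all of them subunits of the oxidative phosphorylation machinery. Its own proteins are all encoded in the nucleus, made in the cytoplasm and imported. Some have bacterial counterparts, and others were added during the evolution of mitochondria.

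A gene was counted as marked if a summit of the thresholded peak set lay at most 500 bp from an annotated transcription start site (TSS) or inside its span. The thresholded set holds 2790 peaks that passed the authors' filter on reproducibility between replicates (IDR). A candidate is any of the 30000 entries in each of the 3 longer lists, made for replicate 1, replicate 2 and both pooled, which include background. Signal is the authors' own strength per peak, on a scale that is not given in the sources used here and that differs between lists. Ranks within a list are therefore given beside many of the signals. Where no rank is given, signals of different lists cannot be compared. The thresholded set was identical in signal to the 2790 strongest pooled candidates, so it equals a cutoff on pooled signal. A peak in it need not be strong, or have a candidate, in each replicate. Sequencing depth is unknown.

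Under this rule 16 of the 73 genes (21.9%) were marked, where 16.7% of all protein-coding genes were. When a summit was counted only for the gene with the nearest coding TSS, the direction turned, with 5 of the 73 members (6.85%) marked beside 12.6% of all protein-coding genes. Under the full rule the corresponding background among genes no longer than the longest member (13391 bp) was 14% of 12435 genes. At promoters alone, meaning the 500 bp on either side of a TSS, 15 of the 73 (20.5%) had a thresholded summit, beside 12.7% of all protein-coding genes. With only the stronger 50% of the thresholded peaks, 9 members were marked at a promoter, beside 7.16%. With the strongest 2790 candidates of each replicate alone, 15 were marked in replicate 1, beside 12.9%, and 14 in replicate 2, beside 12.2%. Promoter peaks were found at 11 of 47 large-subunit genes (23.4%) and at 4 of 26 small-subunit genes (15.4%). In replicate 1 alone the order of the subunits was the reverse, with 8 of 47 (17%) and 7 of 26 (26.9%), and in replicate 2 alone the counts were 10 (21.3%) and 4 (15.4%). Of the 45 members that had any pooled candidate at a TSS, 15 (33.3%) carried a thresholded peak, beside 26.6% of the 6674 genes with such a candidate. These are descriptions of complete lists, and no test of the list was made. The strongest promoter signals were very uneven. Over the 15 marked promoters the median signal was 218 and the range was 125 to 1701, where the median over all 1776 marked protein-coding genes was 197.

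**Figure D1:**
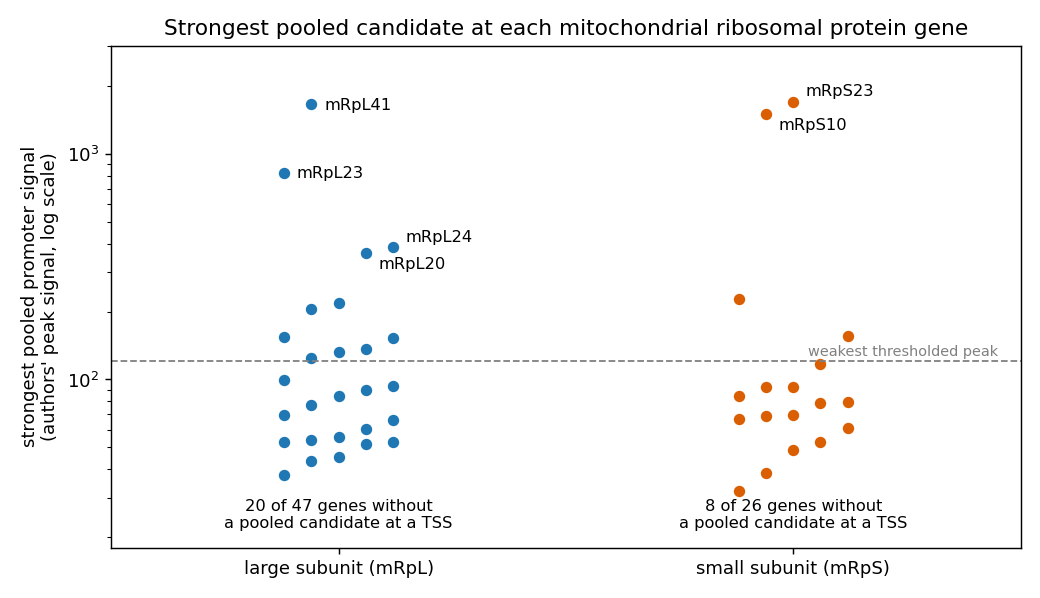
Strongest pooled signal within 500 bp of a TSS (log scale) for each gene of the large and small subunits that had a pooled candidate there, 1 point per gene. The dashed line is the weakest thresholded peak, and mRpS23, mRpL41 and mRpS10 stand at 1701, 1656 and 1498, above all other members.

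Among small-subunit genes, mRpS23 (FBgn0260407, 13834250 to 13835072, minus strand), which encodes a protein with no bacterial counterpart, held the strongest peak of the whole set of genes. Its summit lay on 2L at 13835454, 382 bp upstream of the TSS, with a pooled signal of 1701 (rank 7 of 2790). Replicate 1 had a signal of 312 there (rank 36 of 30000) and replicate 2 a signal of 1387 (rank 6). The summit stood between mRpS23 and CenG1A, an Arf GTPase-activating protein gene transcribed away from it, whose TSS was 110 bp from the summit and therefore nearer.

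The peak at mRpS10 (FBgn0038307, 15229665 to 15230516, plus strand), the counterpart of bacterial S10 in the head of the small subunit, lay on 3R at 15229523, 142 bp upstream of the TSS. Its pooled signal was 1498 (rank 14), with 522 in replicate 1 (rank 8) and 980 in replicate 2 (rank 20). Both replicates thus placed it among their strongest candidates. The arginine methyltransferase gene Art3 starts on the other strand, with its TSS 115 bp from the same summit, so that the whole interval of 257 bp between the pair of TSSs lies under the peak.

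The sequences under these peaks are shown as 300 bp centred on the summit, on the strand of the mitochondrial ribosomal protein gene and written 5′ to 3′, from the NCBI Release 6 assembly with dm6 coordinates. They were chosen from the strongest member peaks. The windows of mRpS10, mRpL23, mRpL24 and mRpL47 hold the whole stretch between the divergent start sites, and those of mRpS23 and mRpS2 hold only the side of the neighbour. Capitals mark matches to any of 8 short sequences listed further on. The mRpL20 window, not shown, held no match.
mRpS23 (chr2L:13835304-13835603, minus strand): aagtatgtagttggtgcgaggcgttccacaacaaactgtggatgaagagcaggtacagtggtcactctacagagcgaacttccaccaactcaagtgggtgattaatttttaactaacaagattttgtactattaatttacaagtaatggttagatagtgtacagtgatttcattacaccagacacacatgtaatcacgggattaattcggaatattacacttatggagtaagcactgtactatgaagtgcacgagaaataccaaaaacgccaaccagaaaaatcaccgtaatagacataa
mRpS10 (chr3R:15229373-15229672, plus strand): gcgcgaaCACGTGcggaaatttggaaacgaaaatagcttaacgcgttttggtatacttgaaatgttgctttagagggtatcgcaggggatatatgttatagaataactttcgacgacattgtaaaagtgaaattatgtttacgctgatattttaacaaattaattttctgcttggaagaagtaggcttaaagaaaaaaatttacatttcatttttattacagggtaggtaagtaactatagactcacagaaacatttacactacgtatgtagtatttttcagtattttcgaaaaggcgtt
mRpL23 (chr3L:2373465-2373764, minus strand): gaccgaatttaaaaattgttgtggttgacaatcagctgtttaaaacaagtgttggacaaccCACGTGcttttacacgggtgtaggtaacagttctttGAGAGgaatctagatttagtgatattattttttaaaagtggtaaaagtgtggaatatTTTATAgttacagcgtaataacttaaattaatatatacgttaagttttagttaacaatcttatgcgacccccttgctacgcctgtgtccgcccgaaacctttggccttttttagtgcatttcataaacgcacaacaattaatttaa
mRpL24 (chr2L:4945345-4945644, minus strand): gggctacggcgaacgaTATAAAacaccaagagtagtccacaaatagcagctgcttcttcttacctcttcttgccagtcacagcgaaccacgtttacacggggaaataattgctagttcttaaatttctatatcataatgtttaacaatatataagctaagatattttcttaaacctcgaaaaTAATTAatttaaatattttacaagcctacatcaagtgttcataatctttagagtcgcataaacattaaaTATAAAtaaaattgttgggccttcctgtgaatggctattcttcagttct
mRpS2 (chr2L:4850436-4850735, minus strand): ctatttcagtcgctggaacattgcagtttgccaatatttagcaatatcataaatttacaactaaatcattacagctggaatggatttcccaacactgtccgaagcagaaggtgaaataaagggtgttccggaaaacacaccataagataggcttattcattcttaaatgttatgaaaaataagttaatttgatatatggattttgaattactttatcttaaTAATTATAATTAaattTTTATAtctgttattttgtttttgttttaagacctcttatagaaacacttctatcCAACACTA
mRpL47 (chr3R:9515809-9516108, minus strand): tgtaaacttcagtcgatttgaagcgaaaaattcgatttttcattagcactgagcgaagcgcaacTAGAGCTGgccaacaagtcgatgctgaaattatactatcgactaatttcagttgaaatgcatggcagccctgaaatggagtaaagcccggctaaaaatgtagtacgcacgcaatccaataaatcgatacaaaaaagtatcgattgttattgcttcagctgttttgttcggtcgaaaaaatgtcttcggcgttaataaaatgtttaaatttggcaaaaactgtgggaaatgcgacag
The TSS of CenG1A falls at base 40 of the mRpS23 window, in which none of the 8 sequences matched. In the mRpS10 window the TSS of Art3 is at base 36 and that of mRpS10 at base 293, and the capitals near the left edge, an E-box, lie on the transcribed side of the Art3 TSS. The mRpL47 window holds both the mRpL47 TSS, at base 201, and the TSS of CG8176 and Kdm3, at base 102. In the mRpS2 window a pair of adjacent homeodomain cores (bases 222 and 228) lies between the summit and the mRpS2 TSS, which falls outside the window.

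The remaining small-subunit promoters were weaker. mRpS2, the counterpart of bacterial S2, had a pooled signal of 227 (2L, summit 4850586, rank 971), with 72.7 in replicate 1 (rank 959) and 150 in replicate 2 (rank 1124). Its neighbour Mon1, which encodes part of the exchange factor of the GTPase Rab7, had its TSS 55 bp from the summit, against 167 bp for mRpS2. mRpS26, a mitochondria-specific protein gene, had a pooled signal of 156 (3L, summit 18106311, rank 1837), with 46.7 and 109 in replicates 1 and 2 (ranks 2195 and 1965). There the TSS of CG13698 was 162 bp from the summit and that of mRpS26 was 268 bp away.

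mRpS9, the counterpart of bacterial S9, was marked only inside its span. The gene covers 13391 bp on 3R (7889277 to 7902667, minus strand), and its long intron holds the gene wtrw, which encodes a TRP channel, on the other strand. The stronger summit, at 7895699, lay in that intron 6968 bp from the mRpS9 TSS but 123 bp upstream of a wtrw TSS, with a pooled signal of 151 (rank 1944). Replicate 1 had a signal of 25.1 there (rank 6895) and replicate 2 of 123 (rank 1568). The second summit, at 7892704, was 9963 bp from the mRpS9 TSS, with a pooled signal of 125 and a replicate 2 signal of 106, and replicate 1 had no candidate within 200 bp. Close to its own TSS mRpS9 had only a weak pooled candidate, with a signal of 38.5 (rank 19984).

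Among large-subunit genes the strongest peak was at mRpL41 (FBgn0034001, 15217024 to 15217617, minus strand), which encodes a mitochondria-specific protein. It lay on 2R at 15217745, 128 bp upstream of the TSS, with a pooled signal of 1656 (rank 9). It was the third strongest candidate of replicate 1 (signal 679) and ranked 19 in replicate 2 (signal 981). No other protein-coding TSS lay within 500 bp of this summit. The nearest gene on the other strand upstream, CG8079, starts 762 bp from the mRpL41 TSS.

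mRpL23 (FBgn0035335, 2372844 to 2373704, minus strand), whose bacterial counterpart L23 sits at the exit of the nascent peptide tunnel, had a pooled signal of 823 (3L, summit 2373615, rank 62). Replicate 1 gave 279 (rank 52) and replicate 2 gave 548 (rank 82). The summit was 63 bp downstream of the nearest mRpL23 TSS, in its 5' UTR, and it was the only marked member promoter with the summit downstream. The TSS of CG9004 lay 50 bp upstream of that start site, and 113 bp from the summit.

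mRpL24 and mRpL20 had pooled signals of 386 and 364. For mRpL24 (2L, summit 4945495, rank 378), the counterpart of another protein at the tunnel exit, replicate 1 had a signal of 176 (rank 168) and replicate 2 of 205 (rank 646). For mRpL20 (3L, summit 13018136, rank 415), whose bacterial counterpart acts early in large-subunit assembly, replicate 1 had 138 (rank 282) and replicate 2 had 204 (rank 651). Both shared the peak with a nearer gene of protein prenylation. betaggt-I, which encodes a subunit of a protein prenyltransferase, started 84 bp from the first summit, and Icmt, the methyltransferase that acts on prenylated proteins, 130 bp from the second.

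The 7 other large-subunit promoters had pooled signals from 125 to 218. mRpL34 (2R, summit 16098722), counterpart of bacterial L34, had 218, with 38.9 in replicate 1 and 173 in replicate 2, and shared its peak with the dystroglycan gene Dg. mRpL47 (3R, summit 9515959), related to bacterial L29, had 204, with 80.9 and 131 in the replicates. Its summit was nearly midway between its own TSS (51 bp) and the TSS shared by the histone demethylase gene Kdm3 and CG8176 (48 bp).
mRpL53 (2R, summit 13954119), a mitochondria-specific protein gene, had 154 in the pooled list and 151 in replicate 2, and no replicate 1 candidate within 200 bp. Its TSS and that of CG33155 on the same strand were both 76 bp from the summit, and the TSS of AGO1, an Argonaute gene of the microRNA pathway, was 94 bp away.
mRpL11 (3R, summit 14511632), counterpart of the stalk-base protein L11, had 153, with 29.4 and 115 in the replicates. The summit lay 80 bp inside HtrA2, which encodes a mitochondrial serine protease.
The weakest were mRpL37, mRpL21 and mRpL4. mRpL37 (3R, summit 10784187), mitochondria-specific, had 137, with 74.3 in replicate 1 and 69.6 in replicate 2, and its summit was 95 bp upstream of its TSS. mRpL21 (3L, summit 19255283) had 132, with 24.6 and 103, and its nearer neighbour was rept, which encodes the helicase reptin. mRpL4 (2L, summit 16329251), counterpart of the tunnel protein L4, had 125, with 28.1 and 103, close to the weakest thresholded signal of 121. No other protein-coding TSS lay within 500 bp of the mRpL4 summit.

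Head-to-head arrangement, counted up to a limit of 1000 bp, was common in the group and was present at every member with a promoter peak. A head-to-head neighbour is here a protein-coding gene on the other strand that starts 0 to 1000 bp upstream, a definition chosen after the peaks had been seen. Such a neighbour was present at 58 of the 73 members (79.5%), where 36.2% of all protein-coding genes had one. All 15 members with a promoter peak were among these 58 (25.9%), beside 21.9% of the 5052 protein-coding genes with such a neighbour. None of the 15 members without such a neighbour was marked, which allows a share of up to 20%, and 7.56% of the 8893 protein-coding genes without one were marked. Among genes with such a neighbour the members' share was thus closer to its background than over all genes (20.5% and 12.7%), and neither difference was tested. The counts depend on the limit of 1000 bp. The neighbours of mRpL41 and mRpL4 start 762 and 793 bp away, so a limit of 500 bp would leave both members without a head-to-head neighbour. No other limit was tried. A summit between a pair of divergent start sites cannot be assigned to either gene from its position.

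**Figure D2:**
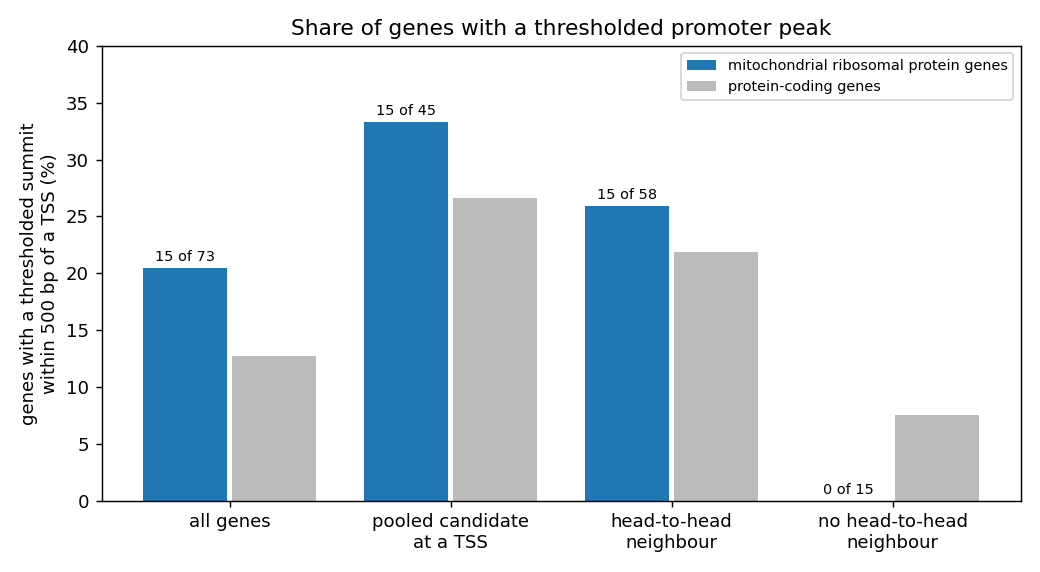
Percentage of mitochondrial ribosomal protein genes (blue) and of protein-coding genes (grey) with a thresholded summit at a promoter, over all genes and in subsets, with the number of members above the bars. The shares are 20.5% and 12.7% over all genes, and 25.9% and 21.9% among genes with a head-to-head neighbour.

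Most summits lay upstream of the members, as they did over all marked genes, and were often nearer to the neighbour. Of the 15 promoter summits 14 were upstream of the member's TSS, where 86.1% of such gene and summit pairs were upstream over all genes with a head-to-head neighbour. The median position was -142 bp (quartiles -224 and -107). Over the gene and summit pairs of all protein-coding genes it was -120 bp (quartiles -214 and -45). An opposite-strand protein-coding TSS was within 500 bp of 13 summits, and 11 of these lay between the pair of start sites. The median distance of those 13 summits was 167 bp from the member's TSS and 110 bp from the nearest other coding TSS. Over all marked genes with a head-to-head neighbour, 81.6% of gene and summit pairs had another coding TSS within that distance. Another gene's TSS was nearer at 10 of the 15 summits, and the member's own was nearest, ties included, at mRpL41, mRpL23, mRpL53, mRpL37 and mRpL4. Across the same marked genes, the gene had the nearest TSS in 59.3% of 1171 pairs. Which TSS is nearer rests on single summit positions, while the fragments were 200 to 800 bp long. At mRpL47 the neighbour's TSS was 48 bp and the member's 51 bp away, and the replicate 1 summit lay 47 bp from the thresholded summit.

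**Figure D3:**
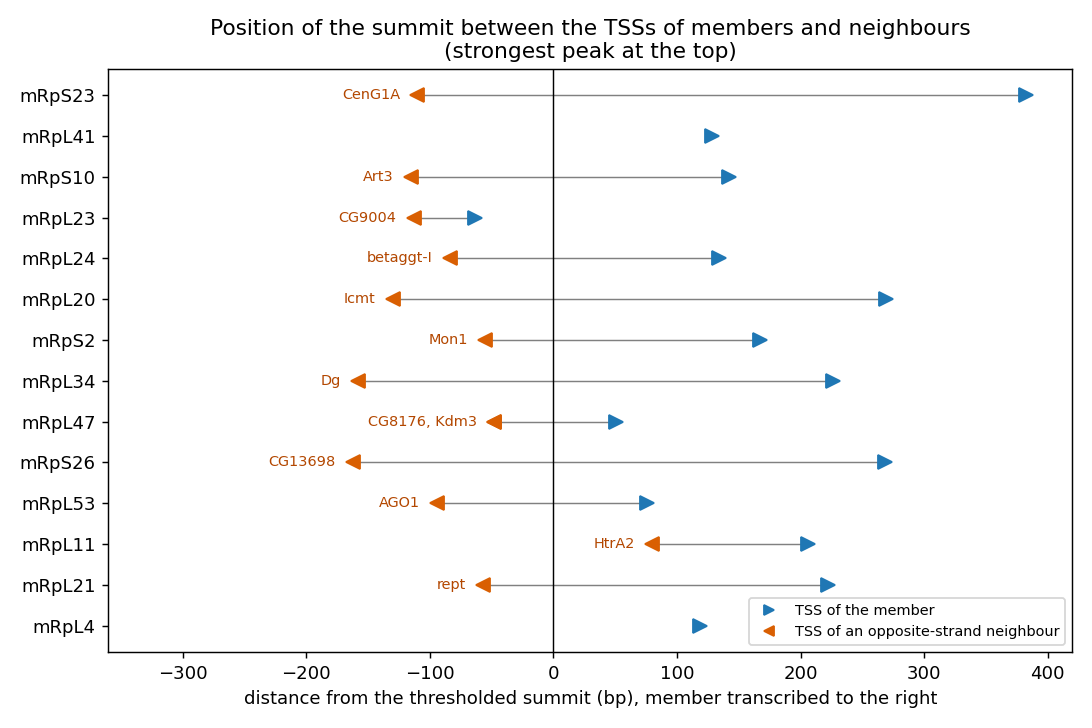
Distance in bp from the thresholded summit (vertical line at 0) to the TSS of the member (blue) and of opposite-strand neighbours (orange) for 14 of the 15 marked promoters (mRpL37 is not drawn), each drawn so that the member is transcribed to the right. The line at 0 falls between the 2 symbols in 10 of the 12 drawn promoters that have a neighbour within 500 bp, the exceptions being mRpL23 and mRpL11.

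The replicates placed the strongest of these peaks alike and differed on the weakest. Replicate 2 had a candidate within 200 bp of all 15 promoter summits and replicate 1 of 14, all but that of mRpL53. Among the 2790 strongest candidates of each replicate, 10 of the 15 summits were found in replicate 1 and 14 in replicate 2, and 9 in both. The 9 were those of mRpS23, mRpL41, mRpS10, mRpL23, mRpL24, mRpL20, mRpS2, mRpL47 and mRpS26. Counted over all 73 members, marked or not, 9 had a promoter candidate among the strongest of both, beside 8.48% of all protein-coding genes. The corresponding share among marked protein-coding genes is not given here, so the 9 of 15 has no background. Only mRpL37 was among the strongest 2790 of replicate 1 but not of replicate 2, with rank 922 in replicate 1 and rank 4259 in replicate 2.

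**Figure D4:**
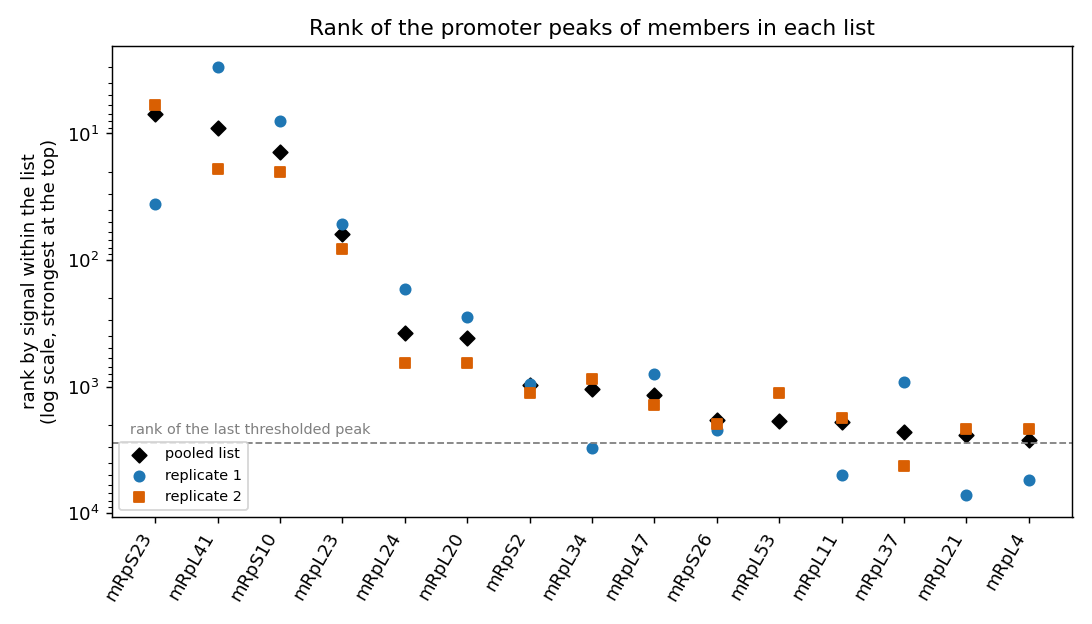
Rank by signal (log scale, strongest at the top) of the 15 member promoter peaks in the pooled list (diamonds), replicate 1 (circles) and replicate 2 (squares). Ranks range from 3 to 7250 in replicate 1 and from 6 to 4259 in replicate 2, the dashed line is rank 2790, and mRpL53 has no replicate 1 point.

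Another 5 members were among the strongest promoter candidates of replicate 1 without being in the thresholded set. mRpS6 had a replicate 1 signal of 68.9 (rank 1082) and mRpS7 of 66.2 (rank 1178), against 34.3 and 46.8 in replicate 2 (ranks 15073 and 8588). mRpL22 (48.3), mRpS24 (44.8) and mRpL44 (43.2) had no replicate 2 candidate at a TSS. No member was in the corresponding position for replicate 2.

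At 30 members the promoter held only a pooled candidate. Leaving out mRpS9, described above, the strongest candidates of the other 29 had a median signal of 67.0 and a range of 32.2 to 117. The strongest were at mRpS7 (117), mRpL18 (99.4), mRpL32 (93.3), mRpS6 (92.9) and mRpS11 (92.5). mRpS7, a counterpart of bacterial S7, missed the weakest thresholded signal of 121 by little, at rank 2926 of the pooled list, and it faces the cell cycle kinase gene Cdk1. mRpL18 faces Taz, the tafazzin gene of cardiolipin remodelling, and mRpS11 faces Ns1, which encodes a nucleostemin GTPase. mRpL32 faces qless, which acts in ubiquinone synthesis. Of the 29 summits, 24 were upstream of the member's TSS and 27 had another coding TSS within 500 bp. The member's own TSS was nearest at 15 of them and another gene's TSS was nearer at 14. The corresponding shares of such summits over all genes are not given here. At a further 7 genes, mRpL9, mRpL16, mRpL19, mRpL27, mRpL33, mRpL45 and mRpL50, only a replicate list had a candidate at the TSS. All 7 are large-subunit genes, as are 47 of the 73 members. The shares of all protein-coding genes with only a pooled candidate, or only a replicate candidate, are not given here.

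At 21 of the 73 members (28.8%) no list had a candidate within 500 bp of a TSS. The same share over all protein-coding genes is not given here. The 21 are described next. They comprised 13 large-subunit genes, among them mRpL12, counterpart of the stalk protein, mRpL10, which anchors the stalk, and mRpL3 near the catalytic centre, and 8 small-subunit genes, among them mRpS5 and mRpS35. A head-to-head neighbour was present at 12 of these 21, compared with 42 of the 45 members that had a pooled candidate at a TSS. Such a neighbour was also more frequent at marked promoters in general. It was present at 62.2% of the 1776 protein-coding genes with a thresholded promoter summit and at 36.2% of all protein-coding genes. The shares by candidate over all genes are not given here. Over all members, 61.6% had a pooled candidate at a promoter, beside 47.9% of all protein-coding genes. The corresponding shares were 63% beside 43.5% in replicate 1 and 58.9% beside 48.6% in replicate 2.

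Marked members lay on arms 2L (4 of 12), 2R (3 of 12), 3L (4 of 17) and 3R (4 of 21), where 13.4%, 12.6%, 12.6% and 13.7% of all protein-coding genes on these arms were marked. None of the 11 members on X was marked at a promoter, which allows a share of up to 27.3%, where 11.2% of all protein-coding genes on X were marked.

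Sequences of the promoters, taken from 250 bp before to 50 bp after the most upstream TSS, were searched on both strands for 8 short sequences. The site of Dref, a transcription factor of growth and replication genes, TATCGATA, was present in 15 of the 73 member promoters (20.5%), beside 9.36% of all protein-coding promoters. Of these 15, 3 were marked at a promoter, at mRpS23, mRpL20 and mRpL4, and 12 were not. Of all protein-coding genes marked at a promoter, 12.8% had the site. No Dref site lay within 100 bp of any of the 15 summits, which allows up to 20%, where 6.30% of the 1382 thresholded summits at coding promoters had one. Core promoter motif 7, CANCNCTA, occurred in 16 member promoters (21.9%, beside 15.6%) and within 100 bp of 4 summits (26.7%, beside 15.3%), those of mRpL21, mRpL34, mRpL37 and mRpL47.
Core promoter motif 1, GGTCACAC, was present in 8 member promoters (11.0%, beside 7.70%). None of the 15 members marked at a promoter had it, which allows up to 20%, beside 10.5% of all protein-coding genes so marked. The E-box CACGTG was found in 5 (6.85%, beside 4.20%). Of the 15 members marked at a promoter only mRpL23 had it, beside 5.24% of all protein-coding genes so marked. The E-box in the mRpS10 window shown above lies outside the promoter stretch searched here. GAGAG, the core of GAGA factor sites, was in 12 (16.4%) where 29.7% of all promoters had it. It was in 3 of the 15 members marked at a promoter (mRpL23, mRpL37 and mRpL53), beside 32.1% of all protein-coding genes so marked. The homeodomain core TAATTA was present in 15 (20.5%, beside 20.4%) and within 100 bp of 2 of the 15 summits (13.3%), those of mRpL24 and mRpS2, beside 14.9% of all thresholded summits at coding promoters. TATAAA was in 34 (46.6%, beside 45.8%). The palindrome of the NRF-1 family, known in flies as the site of ewg, was in none, which allows up to 4.11%, beside 0.724%. A match is a description of the letters and not a site. Matches of different sequences overlapped in 1 member promoter, that of mRpL22. The 100 bp on each side of the summit had a mean GC content of 35.3% ± 7.58 (SD, 15 summits), beside 38.3% ± 7.64 (SD, 1382 summits) at all thresholded coding promoters.

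**Figure D5:**
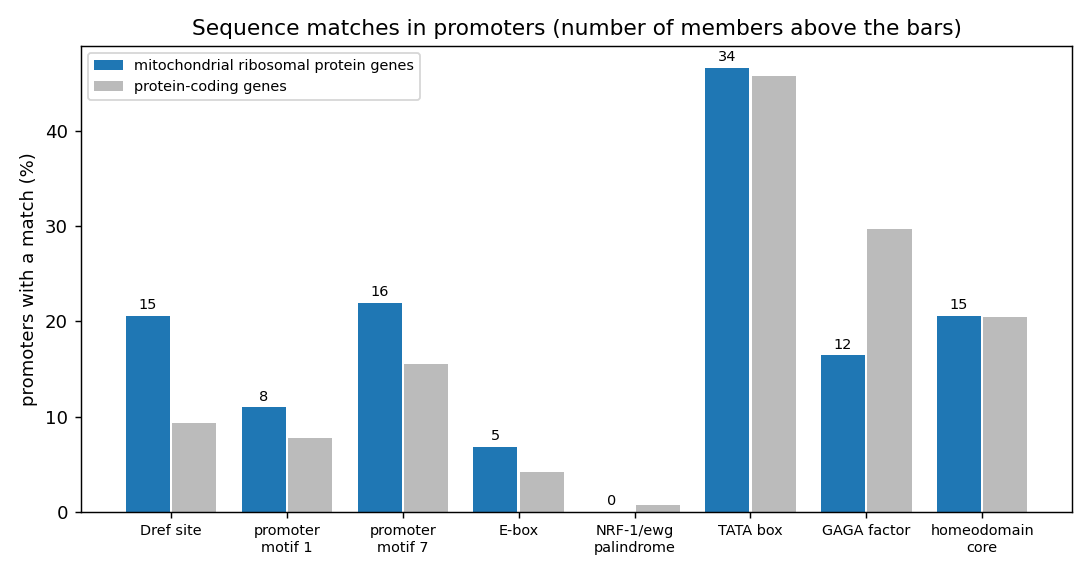
Percentage of promoters with at least 1 match to each of 8 sequences, in the 73 members (blue, with the number of genes above) and in all protein-coding genes (grey). The Dref site is at 20.5% and 9.36%, the GAGA factor sequence at 16.4% and 29.7%, and the homeodomain core at 20.5% and 20.4%.

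Other genes of mitochondrial gene expression carried few peaks, both at genes that charge tRNAs. Of 41 genes listed, 37 were in the annotation by that name, and 2 of them (5.41%) had a thresholded promoter summit, beside 12.7% of all protein-coding genes. GatA, a subunit of the amidotransferase that forms glutaminyl-tRNA, had a pooled signal of 401 (3R, summit 19028957), with 48.1 and 363 in replicates 1 and 2. That summit lay 26 bp inside the opposite-strand gene P5cr, whose TSS was nearer than that of GatA (100 bp). ArgRS-m, the mitochondrial arginyl-tRNA synthetase gene, had 170, with 22.4 and 147. Its summit lay between its own TSS (97 bp) and that of CG17816 on the other strand (215 bp). GatA and ArgRS-m are in the group of 18 genes for charging mitochondrial tRNAs. None of 9 translation factor genes or 7 transcription genes was marked, which allows shares of up to 33.3% and 42.9%. The ribosomal protein genes tko and bonsai, which the name rule leaves out, had no pooled candidate at a TSS. Genes of the cytoplasmic ribosome, counted by the same rule, had a thresholded promoter summit at 65 of 87 (74.7%), of which 52 had a head-to-head neighbour (44 of the 52 marked) and 35 had none (21 of the 35 marked). The difference between the ribosomes was not tested.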

How the data were processed

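Peaks of schlank ChIP-seq in 2 biological replicates of whole embryos were analysed. Per the file lists deposited with each library, candidate lists of each replicate and of both pooled were made against a control as input for IDR, and the thresholded set was derived from all 3. Per the labels, the build is dm6. The sources used here name no aligner, caller or IDR cutoff. Signal as deposited is the authors' peak strength and was used only to rank and describe peaks within a list. The −log10 q-value deposited by the authors has a ceiling and was not used. No read depth is given. Limits for counts of 0 (3 counts of the total) cover counting error only.

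The summit is the start plus the deposited offset, printed 1-based. Genes and TSSs came from Ensembl release 115 for BDGP6 and sequence from NCBI Release 6. All 73 members had the same span in both annotations, and no peak ran past the end of an arm. Counts are over genes, each beside the count over all protein-coding genes, and no set test was run. The assignment was tested on simulated data.

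Named were all members with a thresholded summit, the 5 strongest with only a candidate, and marked genes of the mitochondrial expression list. Genes with a TSS within 500 bp of such a summit were also named. The neighbour of mRpL37 is not reported here. Genes named beyond this rule (mRpL22, mRpS24 and mRpL44 and those with no pooled candidate) were chosen after their values were seen. Members, lists and tests were chosen with earlier results of these data known. Alternatives were other TSS windows, the stronger 50% of peaks, each replicate alone, the nearest TSS, other backgrounds, shared distances and sequence windows, and, added after the data were seen, candidates strong in both replicates. Python 3.11.15, numpy 2.4.6, pandas 2.3.3 and matplotlib 3.10.9 were used.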

Additional observations from a re-analysis of the deposited data

How the results depend on the processing

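No paired analysis was possible because there was 1 group. The position of the summits and their sharing between replicates kept their values within the limits set (spread of the summits, or 1.5 times for counts) under every alternative tried. Leaving out replicate 1 or 2 gave 14 to 15 marked promoters, 15 and 15 genes under the full rule, 8 to 10 large-subunit and 4 to 7 small-subunit promoters, and 1 to 2 genes of the mitochondrial expression list. Without replicate 2 the small subunit had 7 marked promoters, where the main count was 4, and the larger share of the subunits. In the stronger 50% of thresholded peaks 9 members were marked, under the full rule and at promoters, with 6 large-subunit promoters and 1 gene of the expression list, beside 9.67% and 7.16% of all protein-coding genes. A window of 250 bp left 2 small-subunit promoters. Counting only summits whose nearest coding TSS is the member's left 5 of the 73 members (6.85%), below the 12.6% of all protein-coding genes. Promoter candidates strong in both replicates, added after the data were seen, gave 9. With 100 bp on each side of the TSS, 3 member promoters held an E-box (4.11%, beside 2.88% of all protein-coding promoters in that window), 20 a TATA box (27.4%, beside 29.2%) and 7 a homeodomain core (9.59%, beside 9.95%).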
